A study of Danio rerio with 2 samples.

Results

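Forkhead box (Fox) factors are transcription factors that share a winged-helix DNA-binding domain, and they are sorted by letter into subfamilies that each work in particular tissues. The FoxA group opens chromatin for endoderm and floor plate genes, FoxC and FoxF act in mesoderm and vessel formation, FoxI3 marks the skin ionocyte lineage of zebrafish, and FoxO proteins are moved out of the nucleus when the kinase Akt phosphorylates them downstream of growth factor receptors. In mice, Foxo1 is needed for embryonic vessels to form, and FoxC proteins bind composite FOX:ETS sites together with ETS factors in endothelial enhancers. The Fox genes were therefore followed across endothelial-labelled and other cells of the zebrafish embryo, gene by gene and subfamily by subfamily.

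Members were the genes with at least 1 transcript whose protein database match in the deposited files was to a forkhead protein or carried a Fox symbol, with 1 gene set aside. This gave 47 genes of 22017 with at least 1 read, spread over 62 transcripts and 20 chromosomes. Of these, 38 had 10 or more reads over both libraries and entered the test, among 15252 genes in all. The 2 libraries came from Tg(fli1a:EGFP)y1 zebrafish embryos at 22-24 hpf (hours post fertilization), which carry EGFP under the fli1a promoter and for which the labels give no treatment. GFP+ cells, labelled endothelial, and GFP- cells, labelled non-endothelial, were sorted from dissociated embryos, and 1 library was made from total RNA of each. The fli1a promoter is also known to be active in blood precursors and in pharyngeal arch mesenchyme, so that the GFP+ fraction is not endothelium alone. How many embryos were pooled is not given in the sources used here.

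The GFP+ library held 4441335 uniquely mapped reads and the GFP- library 4105672. A floor of 3 reads, taken here as a rough upper limit for a count of 0, stood for 0.675 and 0.731 RPM (reads per 1000000 mapped reads). All 12 endothelial markers with enough reads, from a list of 15 of which 14 were matched, were higher in GFP+ cells, at a summed 2454 RPM against 136, although cdh5 and tek, both defining genes, had only 5 and 7 reads in GFP+ cells against 0 in GFP- cells. The 8 blood markers were higher as well, at 29259 RPM against 320, and hemoglobin genes took 6.6% of the GFP+ reads and 0.0566% of the GFP- reads. Markers of most other tissues summed to less in GFP+ cells, with neural markers at 433 against 1426 RPM (5 of 8 lower, 0 higher), muscle at 574 against 2111 RPM (4 of 4 lower) and skin at 210 against 787 RPM (3 of 4 lower). Markers of somite and mesenchyme stood at 32.2 against 366 RPM (2 of 4 lower). Those of the pharyngeal arches and neural crest, of which 6 of 8 listed were matched, stood at 197 against 361 RPM (4 of 6 lower). In that list sox9a (183 reads against 105) and twist1a (234 against 187) ran the other way and were not called, and dlx2a and dlx5a were not matched. The study itself reports high expression of pharyngeal arch genes in the GFP+ cells, so this short list does not settle how many arch cells they held. With bulk sorted cells, fewer cells of a type and less RNA per cell cannot be told apart, and the part of this make-up in the Fox values was not tested.

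The share of a gene's reads in each library was compared by Fisher's exact test (two-sided), adjusted over all 15252 genes by Benjamini-Hochberg, and a gene was called higher or lower at an adjusted p under 0.001 with a log2 ratio of RPM beyond 1 in size, which is 2-fold. Ratios are GFP+ over GFP-, with 0.5 reads added to each count, and the range in brackets after a ratio is its exact 95% interval, which covers counting error only. As each group has 1 library, a p-value speaks of this pair of libraries, not of the cell populations, and no difference has a replicate check.

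The Fox genes leaned toward the GFP- cells, with a group of FoxO genes on the other side. Of the 38 Fox genes tested, 4 were higher in GFP+ cells (10.5%), beside 9.99% of all genes tested, and 13 were lower (34.2%), beside 10.8% of all genes. The 4 higher genes were foxo1b, foxo1a, foxo4 and foxj3, and the lower genes included foxe3, foxi3b, foxi2, foxb1a, foxa3, foxa1, foxi3a, foxl1, foxd5, foxa2 and foxd1. By the ratio alone, with no test, 7 members (18.4%) lay above a log2 ratio of 1, beside 16.2% of all genes, and 17 (44.7%) lay under -1, beside 17.6%. The share of higher calls was thus near the background and that of lower calls was above it.

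The median log2 ratio of the 38 genes was -0.63, with quartiles at -2.02 and 0.16, against -0.11 for all genes tested, with quartiles at -0.72 and 0.59. Together the 47 members took 4310 reads in GFP+ cells (970 RPM) against 5253 in GFP- cells (1279 RPM). Scaling by trimmed mean of M values (TMM) raised every log2 ratio by 0.11, under which foxl1 left the lower calls and foxk1 joined the higher ones. An edgeR exact test was also run that assumed a biological coefficient of variation of 0.4, at an adjusted p under 0.05. It called foxe3 lower and 0 Fox genes higher, beside 0.741% lower and 2.14% higher of all genes tested. The other 16 calls thus rest on variation between preparations being smaller than 0.4. With 0.2 assumed, 3 Fox genes were higher and 12 lower, beside 9.21% and 8.94% of all genes. The 12 included foxb1, not called in the main test, while foxd1 and foxj3 were among the calls lost.

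**Figure D1:**
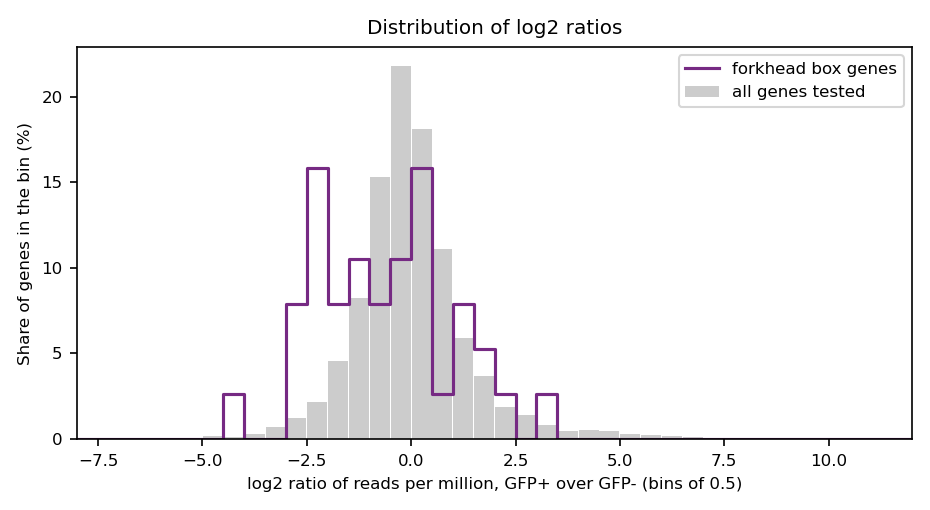
Share of genes (y axis, percent) by log2 ratio of RPM in GFP+ over GFP- cells (x axis, bins of 0.5), with all 15252 genes tested as grey bars and the 38 Fox genes tested as a line. The Fox genes have their bins of greatest share, 15.8% each, between -2.5 and -2 and between 0 and 0.5, while the bin from -2.5 to -2 holds 2.19% of all genes.

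FoxO genes held 3 of the 4 higher calls. The foxo1b gene (ENSDARG00000061549, chromosome 10, 32764017 to 32816265 in Zv9) had 79 reads in GFP+ cells against 8 in GFP- cells. Its log2 ratio of 3.11 (2.14 to 4.45), an 8.65-fold difference, was the highest of all the Fox genes tested (adjusted p = 7.07e-14). Reads covered 82.2% of its transcript in GFP+ cells and 19.4% in GFP- cells. Its duplicate foxo1a (ENSDARG00000063540, chromosome 16, 6063894 to 6072221) had 48 reads against 10, a log2 ratio of 2.09 (1.15 to 3.30) with an adjusted p of 5.07e-06. Both zebrafish copies of Foxo1 were thus several-fold higher in the GFP+ library, in which blood markers were higher as well as endothelial ones. The part of vessel or blood cells in these values was not tested.

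The third of these genes, foxo4 (ENSDARG00000055792, chromosome 14, 31779716 to 31783097), had 181 reads in GFP+ cells against 48 in GFP- cells, which is 3.46-fold higher (log2 ratio 1.79, 1.34 to 2.29, adjusted p = 3.50e-16). Per length it was the most abundant FoxO gene in GFP+ cells, at 21.9 RPKM, and ranked at 5 among the Fox genes there. In GFP- cells it ranked at 21 with 6.29 RPKM. RPKM is reads scaled by transcript length in kilobases and by the library total, summed here over the transcripts of a gene. The other two tested members, the duplicates of Foxo3, a factor known in mammals for stem cell quiescence and longevity, were not called. The foxo3a gene had 317 reads against 272 (log2 ratio 0.11, -0.13 to 0.35), and foxo3b, which the files describe as forkhead box O5, had 127 against 175 (-0.57, -0.92 to -0.24, adjusted p = 1.86e-03). The FoxO genes summed to 172 RPM in GFP+ cells against 125 RPM in GFP- cells, and the median log2 ratio of the 5 tested was 1.79.

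The kinases that act on FoxO and the genes that FoxO activates were read beside these. Over all genes tested, 9.99% were higher and 10.8% lower, with a median log2 ratio of -0.11. Of 11 kinases, phosphatases and receptors upstream of FoxO that were tested, from 16 listed, 1 was higher and 0 lower. Their median log2 ratio was 0.10. The higher gene was akt3b, a copy of the kinase that phosphorylates FoxO, with 137 reads against 38 (log2 ratio 1.72). Another copy with more reads, akt2, had 872 against 752 (0.10) and was not called. Within 2-fold and on opposite sides lay the insulin receptor gene insra (-0.88) and the kinase gene pdpk1b (0.72). The genes of this list summed to 761 RPM in GFP+ cells against 765 in GFP- cells. The list of genes known as FoxO targets in mammals was chosen with earlier results of these data known. Among 17 of its genes that were tested, of 21 listed, 4 were higher, 1 was lower, and the median was 0.46. The higher genes were sod2, the mitochondrial superoxide dismutase, with 78 reads against 13, the pyruvate dehydrogenase kinases pdk2a (78 against 17) and pdk4 (41 against 8), and irs2a, an insulin receptor substrate (296 against 109). The lower gene was cited2, a transcriptional co-regulator, with 100 against 223. Other target genes of the list such as bcl6a (289 against 318) and klf2a (116 against 78) were not called. Nor was txnipa, which had the most reads of the list, with 2849 against 3148 (log2 ratio -0.26). Of the 17 tested, 12 had a ratio above 0, but the matched genes of the list summed to 1120 RPM in GFP+ cells against 1143 in GFP- cells. Whether FoxO activity differed between the fractions was not tested.

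The FoxC genes, which act in paraxial mesoderm and early vessels, stood at the same level in both libraries within counting error. The foxc1a gene (ENSDARG00000091481, chromosome 2) had 240 reads in GFP+ cells against 198 in GFP- cells, a log2 ratio of 0.16 (-0.11 to 0.44). Its duplicate foxc1b (ENSDARG00000055398, chromosome 20) had 145 against 129, a ratio of 0.05 (-0.30 to 0.41). A difference of 2-fold lay outside both intervals. Their levels of 24.9 and 16.8 RPKM placed foxc1a at rank 4 and foxc1b at rank 7 among the Fox genes in GFP+ cells. Of the ETS factors, the partners at FOX:ETS sites, 5 of the 6 tested were higher, beside 9.99% of all genes. Their median log2 ratio was 3.89. The exception was ets2, with 96 reads against 141. The fli1a gene, whose promoter drives the transgene used for the sort, had 753 against 9. Some of the 5 higher genes, fli1a among them, were also counted as endothelial markers, so the 2 lists are not independent.

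The mesenchymal genes beside them were sparser. The foxf1 gene, which in mice patterns the visceral mesoderm and its vessels, had 37 reads in GFP+ cells against 13 in GFP- cells. Its ratio of 1.36 (0.45 to 2.43) missed the p threshold (adjusted p = 4.48e-03). The foxf2a gene had 14 against 21 and foxq1 (ENSDARG00000030896) 3 against 16, the latter with a ratio of -2.35 (-4.95 to -0.72) that did not pass either. On chromosome 2 foxc1a, foxf2a and foxq1 lie in a row, with gaps of 24.7 and 4.8 kb, and their log2 ratios were 0.16, -0.68 and -2.35. The matching row on chromosome 20 holds foxf2b, with 0 reads against 2, at 9.94 kb from foxc1b. Of the 3 neighbours on chromosome 2, only foxc1a was well counted.

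Of the FoxL genes, foxl1 (ENSDARG00000008133, chromosome 18, 17142728 to 17144587), known in mice from the mesenchyme around the gut, was lower, with 7 reads in GFP+ cells against 27 in GFP- cells (log2 ratio -1.99, -3.50 to -0.83, adjusted p = 6.99e-04). Under TMM scaling this ratio was -1.88 and no longer called. The ovarian factor foxl2 (ENSDARG00000068417) had 10 reads against 4, and its diverged relative foxl2l had 4 against 8. Counts this small left intervals of several log2 units around both.

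The FoxK genes were among the more abundant Fox genes in both libraries, and none was called. The foxk2b gene (ENSDARG00000011609, chromosome 3, 11927081 to 11975598) had the highest level of any Fox gene in both, 46.9 RPKM in GFP+ cells and 60.2 in GFP- cells, from 727 and 863 reads. Its log2 ratio of -0.36 (-0.51 to -0.22) passed the p threshold (adjusted p = 2.84e-06) but not the 2-fold one. The other copy, foxk2 (ENSDARG00000030583, chromosome 12), had 171 reads against 220, a ratio of -0.48 (-0.77 to -0.18). Only foxk1, a repressor known from mouse muscle progenitors, ran the other way among the FoxK genes, with 342 reads against 169. Its ratio of 0.90 (0.63 to 1.18, adjusted p = 6.07e-11) fell just short of 2-fold, and with TMM scaling it was 1.01 and called higher. At 31.8 RPKM foxk1 was the third Fox gene of GFP+ cells, and at 17 RPKM it ranked at 13 in GFP- cells.

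The FoxM1 factor drives genes of the G2 phase and mitosis. The foxm1 gene (ENSDARG00000003200, chromosome 4) had 548 reads in GFP+ cells against 455 in GFP- cells, or 36.5 and 32.8 RPKM. Its ratio of 0.15 (-0.03 to 0.34) was not called. Among all genes tested, 9.99% were higher and 10.8% lower. Of 12 tested genes that FoxM1 activates in mammals, from 16 listed, 1 was higher and 0 lower, with a median log2 ratio of 0.09. That gene was the spindle checkpoint kinase bub1, with 714 reads against 305, while cyclin B1 (ccnb1) had 162 against 241. Both FoxM1 and most of these genes were thus within 2-fold between the sorted fractions.

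Of the FoxP and FoxN genes, 4 were tested. The foxp1b gene (ENSDARG00000014181, chromosome 6), whose mammalian counterpart acts in heart, blood and motor neurons, had 441 reads against 549, at 21.8 and 27.3 RPKM and a ratio of -0.43 (-0.61 to -0.25, adjusted p = 1.32e-05). The brain-expressed foxp2 gene had 22 against 17. For foxn2b the reads were 144 against 151, and for foxn4, which in the retina promotes amacrine and horizontal cells, they were 4 against 8. None of these was called, and only foxp1b and foxn2b had intervals narrower than 1 log2 unit.

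FoxJ genes sat on the GFP+ side or at even levels. The foxj3 gene (ENSDARG00000075774, chromosome 11, 27167503 to 27245282) had 80 reads in GFP+ cells against 36 in GFP- cells, a log2 ratio of 1.03 (0.45 to 1.65, adjusted p = 7.87e-04) that only just passed both thresholds. With 5 reads added in place of 0.5 the ratio was 0.94 and the call was lost. Its relative foxj2 had 27 reads against 7, a ratio of 1.76 (0.60 to 3.28) that was not called (adjusted p = 4.17e-03). The cilia regulator foxj1a (ENSDARG00000059545) had 93 against 82, at a ratio of 0.07 (-0.38 to 0.51). The motile cilia genes under Foxj1 gave 0 calls in either direction among the 9 tested of 18 listed, with a median of -0.50. Of these, the radial spoke gene rsph9 had 10 reads against 18. Among all genes tested, 9.99% were higher and 10.8% lower.

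**Figure D2:**
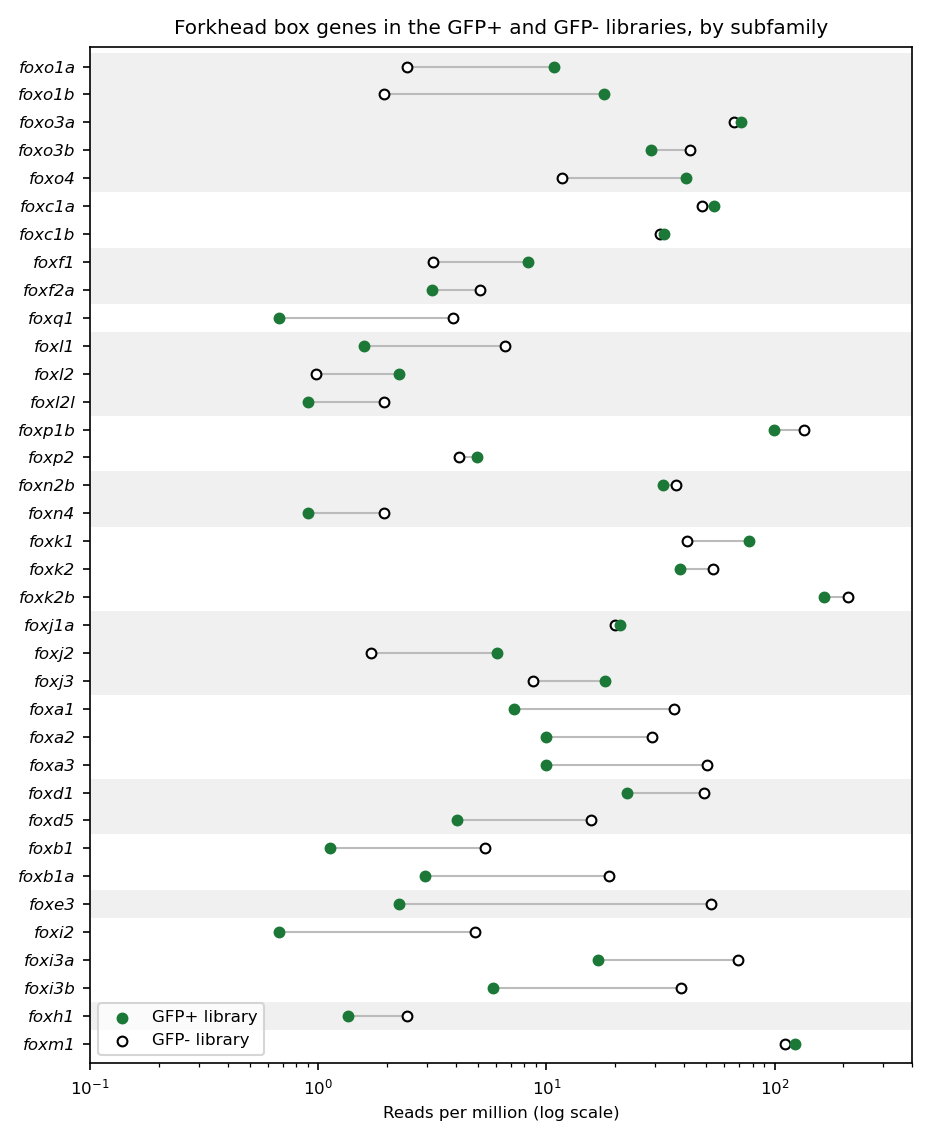
RPM (x axis, log scale) of 36 of the Fox genes with 10 or more reads (y axis, grouped by subfamily on alternating bands), with the GFP+ library as filled green points and the GFP- library as open points. The pairs of points for foxo1a, foxo1b and foxo4 lie with GFP+ to the right, whereas in every FoxA, FoxD, FoxB, FoxE and FoxI gene the GFP- point is to the right.

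All 3 FoxA genes, pioneer factors of the endoderm and the floor plate, were lower in GFP+ cells, with 120 reads in GFP+ cells against 475 in GFP- cells in sum. The foxa3 gene (ENSDARG00000012788, chromosome 18, 44759027 to 44762722) had 44 reads against 207, a log2 ratio of -2.33 (-2.85 to -1.87, adjusted p = 2.39e-28). For foxa1 (ENSDARG00000019150, chromosome 17, 10280426 to 10283287) the reads were 32 against 149 and the ratio -2.32 (-2.93 to -1.77, adjusted p = 2.73e-20). For foxa2 (ENSDARG00000003411, chromosome 17, 42391852 to 42394352) they were 44 against 119, with a ratio of -1.54 (-2.08 to -1.04, adjusted p = 9.23e-10). Beside these, sox17, listed here as an endoderm marker, had 19 reads in GFP+ cells against 1 in GFP- cells. For gata5 the reads were 41 against 39, and for the notochord marker ntla 13 against 172. The endoderm markers summed to 13.5 RPM against 9.74 (1 of 2 higher, sox17), too few genes to gauge how much endoderm either fraction held. Those of notochord and floor plate summed to 11.9 against 54.6 (1 of 3 lower). The part of either tissue in the FoxA values was not tested.

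FoxE3 is the lens factor of vertebrates. The foxe3 gene (ENSDARG00000062892, chromosome 8, 20206672 to 20208317) had 10 reads in GFP+ cells against 216 in GFP- cells, the lowest log2 ratio of all the Fox genes at -4.48 (-5.63 to -3.64, adjusted p = 1.12e-53), 22.3-fold lower. Reads covered 22.2% of its length in GFP+ cells and 97% in GFP- cells. In GFP- cells it ranked at 4 among the Fox genes, at 32 RPKM, while in GFP+ cells it stood at 1.37 RPKM. It was also the Fox call that held when a coefficient of variation of 0.4 was assumed (adjusted p = 0.0015, edgeR exact test).

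FoxI genes were all lower, at 23.4 RPM in sum against 113 RPM. The foxi3a gene (ENSDARG00000055926, chromosome 21, 29095317 to 29097012), which with foxi3b sets skin cells on the ionocyte path, had 75 reads against 284, a ratio of -2.03 (-2.42 to -1.66, adjusted p = 2.21e-32). At 43.5 RPKM it was the second Fox gene of GFP- cells. The foxi3b gene (ENSDARG00000009550, chromosome 14, 35644823 to 35646509) had 26 against 160, a ratio of -2.71 (-3.39 to -2.13, adjusted p = 4.80e-26). The foxi2 gene (ENSDARG00000069715, chromosome 13, 13439565 to 13442146), which the files describe as forkhead box protein I3, had 3 against 20. Its ratio was -2.66 (-5.24 to -1.10, adjusted p = 5.94e-04). With median-of-ratios size factors the foxi2 ratio was -2.55 and no longer called. Of the ionocyte markers listed, ca2, a carbonic anhydrase, had 489 reads against 825 and was not called, and gcm2 had 0 reads against 4.

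Genes of the forebrain and the neural plate were lower as well. The foxd1 gene (ENSDARG00000029179, chromosome 5, 36615661 to 36617444), of the ventral forebrain and temporal retina, had 100 against 201, a ratio of -1.12 (-1.48 to -0.77, adjusted p = 4.11e-10). It was thus only about 2-fold lower and kept a level of 12.6 RPKM in GFP+ cells.

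The foxd5 gene (ENSDARG00000042485, chromosome 8, 31300987 to 31302137), a factor of the neural plate and tailbud, had 18 reads in GFP+ cells against 64 in GFP- cells, a ratio of -1.92 (-2.79 to -1.17, adjusted p = 2.18e-07). Of the FoxB genes of the neural tube, foxb1a (ENSDARG00000089042, chromosome 25, 35200981 to 35202962) had 13 against 77, a ratio of -2.63 (-3.65 to -1.82, adjusted p = 1.51e-12). The other copy, foxb1 (ENSDARG00000053650, chromosome 7), had 5 against 22, a ratio of -2.15 (-4.01 to -0.81) that was not called (adjusted p = 1.97e-03). The Nodal cofactor foxh1, used mostly at gastrulation, had 6 reads against 10. Of the 11 genes tested in the FoxA, FoxB, FoxD, FoxE and FoxI subfamilies, 10 were lower and 0 higher, beside 10.8% and 9.99% of all genes. This grouping was made after the values were seen, so its count only describes them and is not a test.

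**Figure D3:**
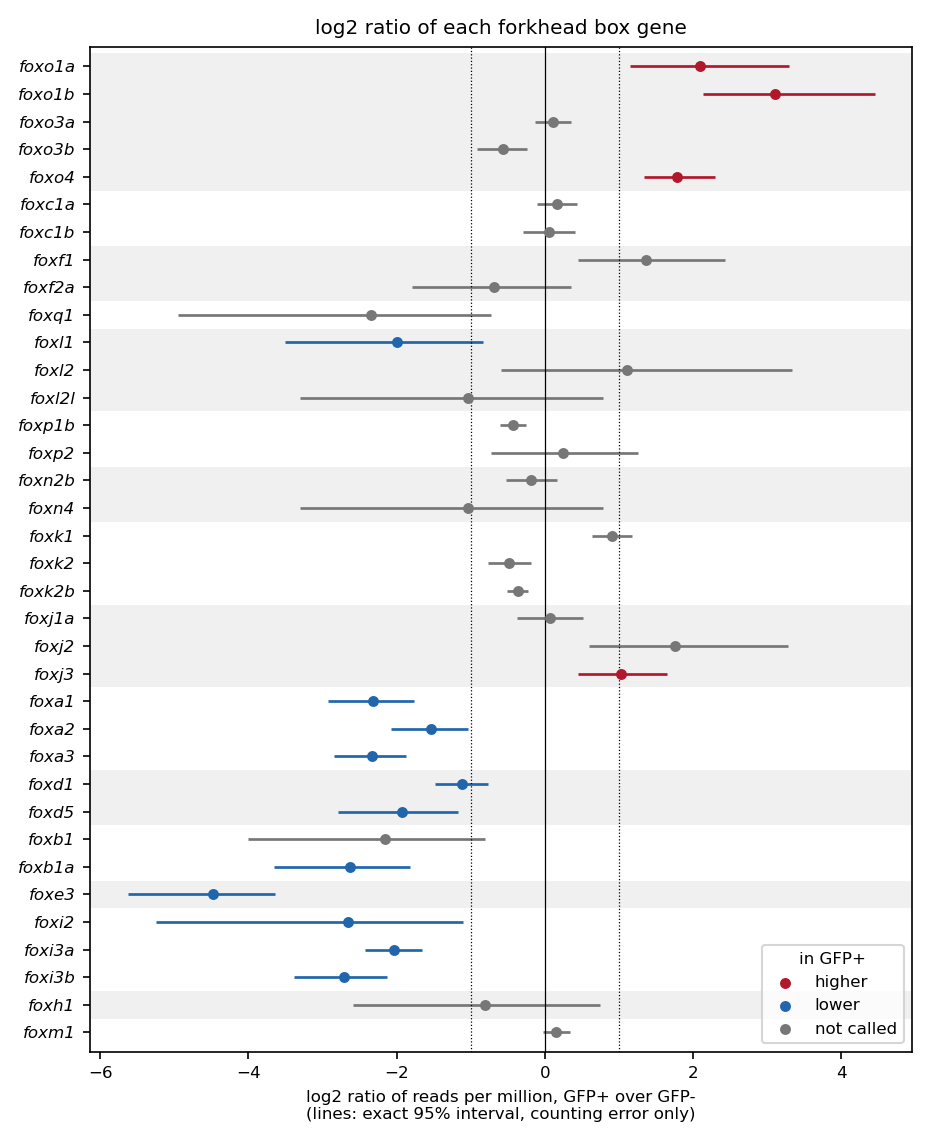
Log2 ratio of RPM in GFP+ over GFP- cells (x axis) for 36 of the Fox genes tested (y axis, by subfamily), with lines for the exact 95% interval from counting error and colour for the call. The 4 genes called higher lie between 1.03 and 3.11 and the 11 drawn as lower between -4.48 and -1.12, and dotted lines mark -1 and 1.

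Zebrafish carry duplicate copies of many Fox genes, and 13 pairs of copies could be compared within the same libraries, where library scaling plays no part. At an adjusted p under 0.05 over the 13 pairs, 1 pair differed. That pair was foxo3a and foxo3b, whose log2 ratios differed by 0.68 (0.27 to 1.10, Fisher's exact test, adjusted p = 0.014), with foxo3a giving 71.4% of the pair's reads in GFP+ cells against 60.9% in GFP- cells. Within foxo3b itself the transcripts went apart, with 17 reads against 4 on the shorter one (4540 bases) and 110 against 171 on the longer one (5585 bases), a split chosen for mention after its values were seen. How reads shared by both transcripts were counted is not given in the sources used here.

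The other pairs did not pass, which does not show that the copies act alike. For foxo1a minus foxo1b the difference was -1.02 with an interval from -2.68 to 0.57, and for foxi3a minus foxi3b it was 0.68 (-0.03 to 1.46). Narrow intervals were found for foxc1a minus foxc1b, at 0.11 (-0.34 to 0.56), and for foxk2 minus foxk2b, at -0.12 (-0.45 to 0.21), so that differences of 2-fold between those copies lay outside them. The difference of foxl2 minus foxl2a was 3.54 (0.37 to 9.76, adjusted p = 0.15, Fisher's exact test), from 10 against 4 and 1 against 7 reads. The remaining pairs, foxb1 minus foxb1a at 0.49 and foxj1a minus foxj1b at 0.47 among them, or with a copy of at most 2 reads, could bound little.

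**Figure D4:**
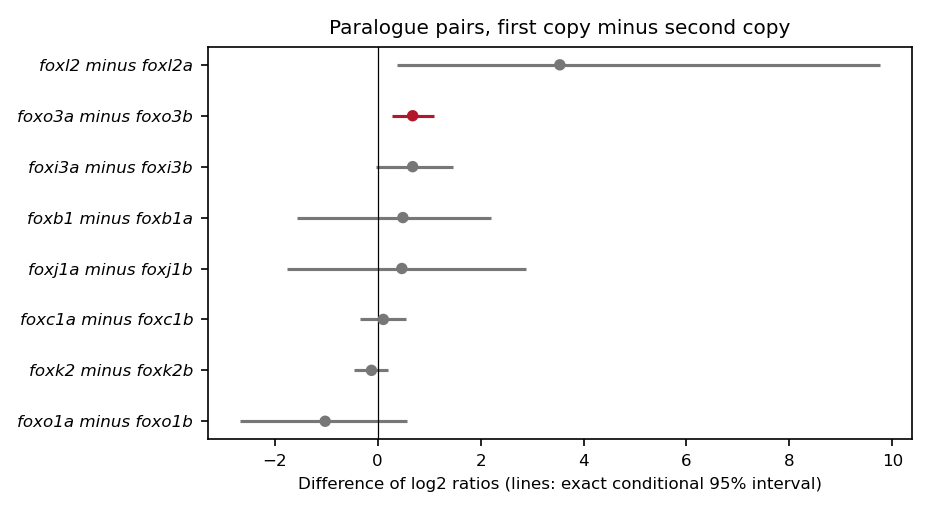
Difference of log2 ratios between the copies of a Fox gene (x axis, first copy minus second copy) for 8 pairs with a finite interval (y axis), with lines for the exact conditional 95% interval. The pair drawn in red, foxo3a minus foxo3b, lies at 0.68 with an interval from 0.27 to 1.10.

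A feature that the choice of genes did not use was gene structure. Of the 38 Fox genes tested, 13 (34.2%) had transcripts as long as their span in Zv9, that is no intron, against 382 of all genes tested (2.5%). Of those 13, 7 were lower (53.8%) and 0 higher, with a median log2 ratio of -1.92. Among all 382 such genes 18.6% were lower and 6.81% higher, with a median of -0.31. The 25 Fox genes with introns held all 4 higher calls (16%) and 6 lower ones (24%), at a median of -0.36. Among all genes with introns 10.1% were higher and 10.6% lower. The FoxC genes were intronless and even between the libraries, so not every Fox gene of that structure was low in GFP+ cells, and how far structure and subfamily go together was not tested.

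The remaining 9 members had between 1 and 9 reads over both libraries and were left out of the test. In GFP+ and GFP- cells respectively, foxn3 had 8 and 1 reads, foxo6a 6 and 1, foxj1b 4 and 5, and a short gene on chromosome 15 that resembles FoxO1 (ENSDARG00000088879) 4 and 0. For foxl2a the reads were 1 and 7, for foxf2b 0 and 2, and for both foxn1, the thymus factor, and foxp1a 1 and 0. Just inside the minimum of 10 reads lay foxl2l and foxn4 with 12 each, and just outside it foxn3 and foxj1b with 9 each. The 9 genes under the minimum got no call because they were not tested, and with no minimum applied none of them was called.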

How the data were processed

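Total RNA of the GFP+ and the GFP- fraction was made into 1 TruSeq library each. In the deposited files each Ensembl transcript (Zv9) that drew any read has its count of uniquely mapped reads. The deposited RPKM is that count scaled by transcript length and library total, as recomputing it showed. For a gene with several transcripts their RPKM values were added, so short transcripts with few reads can raise its level and rank. Coverage is deposited as a percent of the transcript's bases, with the transcript length and other annotation. The aligner, the counter, the use of strand and the treatment of reads shared by isoforms or near-identical copies are not given in the sources used here, so values of close copies and of overlapping genes are uncertain.

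Counts were summed per gene in Python 3.11.15 with pandas 2.3.3, and tested with Fisher's exact test (SciPy 1.17.1). Members were named from RefSeq protein accessions (26), Ensembl gene IDs (19) or the database text (2). Every member with at least 10 reads over both libraries is named with its reads, and full statistics are given for called genes, for the 10 with the highest RPKM and for copies of a gene. The members and the lists of markers, regulators and targets were chosen with earlier results of these data known. The procedure was tested on simulated libraries with counting error only, which carry no variation between preparations. Totals of 4441335 and 4105672 reads set the precision, and intervals cover counting error only, since reads without molecular identifiers are not independent molecules. Alternatives used TMM factors and exact tests of edgeR 4.0.16 and size factors of DESeq2 1.42.0 in R 4.3.3, other totals, minimums, pseudocounts, transcripts and thresholds. Some members and list genes are not reported here by name, though the counts and medians include them. No sequence is printed, because no sequence table or genome was used here.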

Additional observations from a re-analysis of the deposited data

How the results depend on the processing

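The median log2 ratio of the Fox genes stayed between -0.71 and -0.48 under all alternatives that could change it. The count of Fox genes higher in GFP+ cells was 4. It was 7 of 38 with no test, where 16.2% of all genes were higher. At an adjusted p under 0.05 with no minimum ratio it was again 7 of 38, where 22.4% of all genes were higher. It was 0 in edgeR's exact test with a coefficient of variation of 0.4, where 2.14% of all genes were higher. That test left 1 of the 13 lower calls. At an adjusted p under 0.001, 0 of the paralogue pairs differed in place of 1. Under the other settings both counts stayed within 1.5 times. Of 337 gene values under settings that kept the test and its thresholds, 325 kept their direction and call. A further 10 lost the call, 2 gained it and 0 changed direction. Settings with no test, another threshold or the edgeR test are not in this tally. The losses included foxl1, foxj3 and foxi2 and the gains in foxk1. Scaling by TMM or by median-of-ratios size factors raised all log2 ratios by 0.11, and totals without hemoglobin reads by 0.10 at the median gene. Leaving out members matched to other families removed 0 genes, so its values in the tally of 337 only repeat the main ones. No paired analysis was possible because there is 1 library a group, and no replicate could be left out. Genes with few reads had wide counting intervals, which limits what could be called.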

Other observations

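Some genes carry a Fox symbol in the name tables although their database match in the files names no forkhead protein, and a setting that includes them was chosen after seeing the data. The foxo6b gene had 85 reads in GFP+ cells against 53 in GFP- cells (log2 ratio 0.56, 0.06 to 1.09), and was not called. A foxn2 gene on chromosome 13 (ENSDARG00000055574), matched to a T-cell leukemia virus enhancer factor-like protein, had 18 reads against 1 and was higher (3.51, 1.39 to 9.44, Fisher's exact test, adjusted p = 0.0003). The foxd7 gene had 24 against 16. The gene ENSDARG00000076120, named foxp4 in the table but matched to a Rassf8 protein in the files, had 231 against 573 and was lower (-1.42, -1.65 to -1.20, adjusted p = 3e-39). With 5 genes of this kind added, 5 of 43 Fox genes were higher and 14 lower, beside 9.99% and 10.8% of all genes. Their median log2 ratio was -0.57.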
